A study of Peromyscus californicus with 17 samples.

Results

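The smooth muscle contractile genes are the genes whose proteins build and tune the contractile apparatus of smooth muscle cells, and 8 of them were followed here in whole lung: Acta2, Actg2, Myh11, Tagln, Cnn1, Smtn, Lmod1 and Des. They were taken by symbol as known genes of this apparatus, with earlier results of these data known, and all 8 were found among the 27786 genes of the table. RNA was sequenced from the lungs of 17 male Peromyscus californicus, a monogamous deer mouse, with 1 library per animal. The 6 bonded animals (B1 to B6) had lived with a mate for 4 months. The 6 bond-disrupted animals (BD1 to BD6) had done the same and were then taken from the mate, and their lungs were collected on day 7 after that. The 5 virgin animals (V2 to V6) were of similar age and kept in groups. The males come from a genetically diverse stock (stock IS), and animals that carry the same number belong to 1 family, brothers in most cases and cousins in the case of V3 and V4. Virgins differed from bonded animals in group housing as well as in mating, and these cannot be told apart. The design asks whether lung transcripts differ between males with a mate, males that lost it and males that never had one.

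In lung, smooth muscle forms rings around the airways and layers in the walls of arteries and veins, where its tone sets airflow and blood flow. A smooth muscle cell contracts when calcium and calmodulin switch on a kinase that phosphorylates the light chains of myosin, after which myosin pulls on filaments of smooth muscle actin. The genes of this apparatus share control elements that serum response factor binds together with its partner myocardin, and they are the standard markers of the mature contractile state. Acta2 and Tagln are also made by myofibroblasts, Des also by heart muscle and some pericytes. In whole-tissue RNA, fewer smooth muscle cells and less RNA per cell cannot be told apart.

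Levels are given as FPKM, the reads of a gene per kilobase of its length and per 1000000 reads of the library. The deposited FPKM of a gene had been divided by the lengths of other genes, a different one in each column, so they cannot be compared between animals. For Acta2, the lengths found in the 17 columns ran from 107 to 5809 bases, against 1412 bases for Acta2 itself. For Tagln, with a length of 1241 bases, they ran from 107 to 10520. For Myh11, with 6928 bases, they ran from 107 to 19857. Reads were recovered as whole numbers for all 136 values of the 8 genes and divided by the gene's own length. Whole reads leave multiples of a length open, and 9 of the 136 dividing lengths had been rescaled by a simple ratio. This ratio was one that brought the genes they divided nearer to their other columns. Myh11 in B1, B3 and B5 and Des in B2 and BD3 were among them. The recovered reads ran from 738 for Lmod1 in BD6 to 34679 for Myh11 in B6, so that counting error was small beside the spread between animals. Library depth, in units of 1000000 reads, was 30.8 to 68.2 in bonded animals, 43.9 to 59.4 in bond-disrupted animals and 38.0 to 44.9 in virgins, known up to a factor of 2 because a fragment and its 2 ends cannot be told apart in these values.

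**Figure D1:**
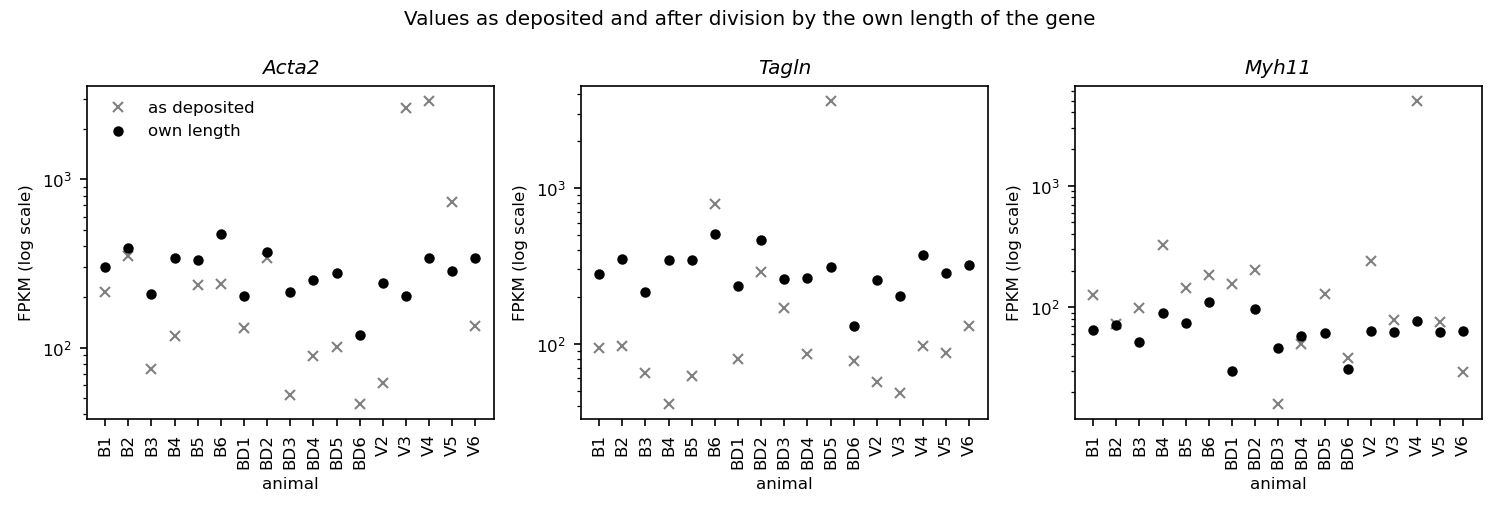
FPKM of Acta2, Tagln and Myh11 in each of the 17 animals on a log axis, as deposited (crosses) and after division by the gene's own length (dots). The crosses scatter with the length that happened to divide each column, while the dots of Acta2 stay between 118 and 472 FPKM.

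Smooth muscle alpha-actin, Acta2, and transgelin, Tagln, an actin-binding protein of the smooth muscle cytoskeleton, were the most abundant of the 8 transcripts. Over all 17 animals their mean levels were 288 ± 86.6 FPKM (SD) for Acta2 and 302 ± 91.3 FPKM for Tagln. These means differed by less than the spread between animals. Desmin, Des, the intermediate filament that ties the contractile units together, followed at 98.2 ± 23.8 FPKM. Smooth muscle myosin heavy chain, Myh11, the motor itself and the most specific of these markers, stood at 65.6 ± 20.7 FPKM. The second actin of visceral smooth muscle, Actg2, stood at 43.3 ± 15.7 FPKM, and calponin, Cnn1, which binds actin and slows the myosin motor, at 33.9 ± 12.8 FPKM. The 2 lowest were smoothelin, Smtn, an actin-binding protein of fully contractile cells, at 25.8 ± 5.82 FPKM, and leiomodin, Lmod1, which starts new actin filaments, at 13.2 ± 4.84 FPKM. In this order Actg2 and Cnn1 also differed by less than the SD of either, and Cnn1 and Smtn by less than the SD of Cnn1, while the other steps were larger than the SD of both genes. The actins are near-identical in their coding sequence, and how reads shared between them were counted is not given in the sources used here, so the split between Acta2 and Actg2 is uncertain to that extent.

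In bonded animals Acta2 ran from 208 FPKM in B3 through a median of 335 to 472 in B6. In bond-disrupted animals it ran from 118 FPKM in BD6 through a median of 233 to 372 in BD2. The virgins stood at 243 FPKM in V2, 203 in V3, 339 in V4, 284 in V5 and 341 in V6. The middle of the bond-disrupted animals lay below that of the bonded ones, and the groups overlapped. Bond-disrupted animals were lower by 0.54 on the log2 scale (log2 fold change −0.54, SE 0.24, unadjusted p = 0.0370, adjusted p = 0.853 by limma with Benjamini-Hochberg adjustment over 15556 genes). Against the bonded animals, the virgins differed by −0.25 on the same scale (SE 0.25, adjusted p = 1 by limma).

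Actg2 followed the same order. It ran from 31.7 to 89.4 FPKM in bonded animals (median 47.9), from 20.2 to 57.9 in bond-disrupted animals (median 32.98) and from 28.3 to 54.5 in virgins (median 43.6). Its log2 fold change between bond-disrupted and bonded animals was −0.52 (SE 0.25, adjusted p = 0.856 by limma), with an unadjusted p just under 0.05. B6, at 89.4 FPKM, stood far above the other bonded animals in this gene.

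For Myh11, bonded animals ran from 52.2 FPKM in B3 through a median of 72.9 to 110 in B6. Bond-disrupted animals ran from 29.8 FPKM in BD1 through a median of 51.9 to 96.1 in BD2, with BD6 at 31.4. The virgins stood at 64.1 FPKM in V2, 62.5 in V3, 76.5 in V4, 62.4 in V5 and 64.3 in V6. The virgins were thus the tightest group, inside the range of the bonded animals, and BD1, BD3 and BD6 lay below every bonded and virgin animal. The log2 fold change between bond-disrupted and bonded animals was −0.59 (SE 0.24, unadjusted p = 0.0241, adjusted p = 0.817 by limma), the largest in size of the 8. BD1 was low in Myh11 beyond its other contractile genes, with 0.146 FPKM of Myh11 for each FPKM of Acta2, the lowest such ratio among the 17 animals, where the median was 0.225.

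Among the actin-binding regulators, Tagln ran from 216 FPKM in B3 to 503 in B6 (median 346) in bonded animals and from 131 in BD6 to 461 in BD2 (median 262) in bond-disrupted animals. The virgins lay between 204 and 370 FPKM (median 285). BD2 was above every bonded animal but B6, and the log2 fold change was −0.34 (SE 0.25, adjusted p = 0.882 by limma). Cnn1 ran from 17.1 to 64.6 FPKM in bonded animals, from 12.9 to 47.0 in bond-disrupted animals and from 25.0 to 42.8 in virgins. Its fold change between bond-disrupted and bonded animals was −0.53 (SE 0.30, adjusted p = 0.872 by limma). B3, a bonded animal, held the second lowest Cnn1 of all animals. Smtn ran from 23.1 to 39.1 FPKM in bonded, from 13.5 to 31.5 in bond-disrupted and from 22.1 to 31.4 in virgin animals, and its log2 fold change was −0.33 (SE 0.17, adjusted p = 0.861 by limma). Lmod1 ran from 7.06 to 20.2 FPKM in bonded, from 5.87 to 24.2 in bond-disrupted and from 10.6 to 16.7 in virgin animals. It was the only one of the 8 in which a bond-disrupted animal, BD2, held the highest level, and its log2 fold change was −0.40 (SE 0.27, adjusted p = 0.881 by limma).

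Des showed the smallest difference. Bonded animals ran from 69.0 FPKM in B3 through a median of 108 to 147 in B6. Bond-disrupted animals ran from 48.7 FPKM in BD6 through a median of 98.6 to 135 in BD2. Virgins ran from 64.9 FPKM in V3 to 111 in V6, with a median of 98.4. Without BD6 the bond-disrupted range lay within the bonded one, and the log2 fold change over all animals was −0.18 (95% interval −0.64 to 0.27, adjusted p = 0.921 by limma).

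**Figure D2:**
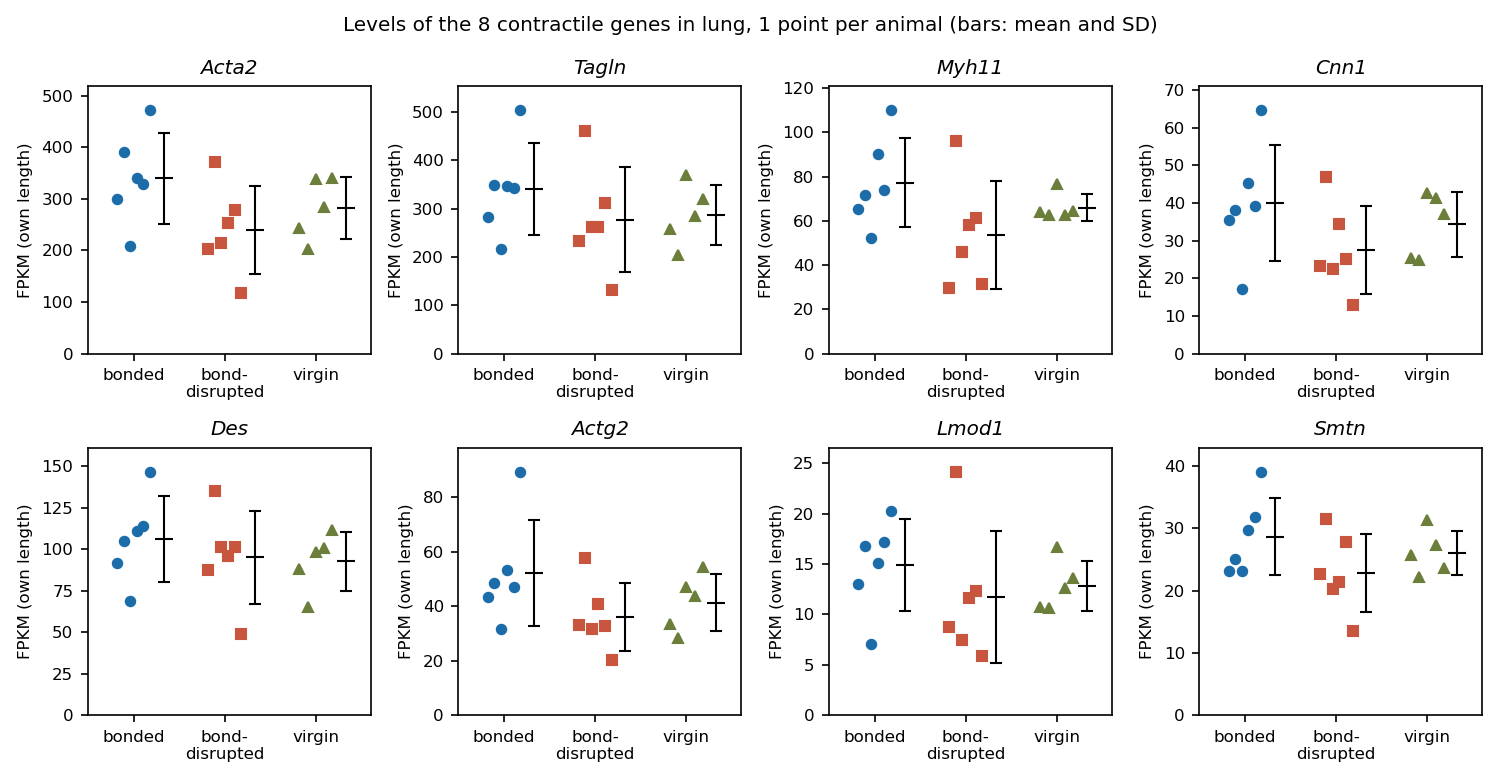
FPKM of each of the 8 genes with its own length, 1 point per animal, for 6 bonded, 6 bond-disrupted and 5 virgin animals, with the group mean and SD beside the points. The groups overlap in every gene, and the highest bonded point (B6) and the lowest bond-disrupted point (BD6) stand out in most panels.

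None of the 8 genes was called between bond-disrupted and bonded animals, at an adjusted p under 0.1 and a change of at least 2-fold (0 of 8 by limma, against 0% of the 15556 genes tested). All 8 had a log2 fold change below 0, as had 48.3% of all genes, and their median was −0.46 against 0.01 over all genes. In each of the 8, animals of both groups overlapped, and 0.27% of all genes parted them without overlap. A fold change at or below −0.46 was found in 2.04% of all genes. At an unadjusted p under 0.05, which 907 genes passed (5.83%), Acta2, Myh11 and Actg2 were lower (3 of 8), where 3.05% of all genes were lower at this level. Fitted with limma voom on the recovered reads, 0 of 17853 genes were called, and 1116 had an unadjusted p under 0.05, with 3 of the 8 among them. Over 11 alternatives in method that did not use the values as deposited, voom included, 3 of the 8 passed this level in 6. The 6 include an additive removal of the length effect, which uses no gene lengths, and a fit without fold limit, which leaves p unchanged. In 4 alternatives 2 of the 8 passed (the family number as a block among them), and 1 did in the fit to only the 2 groups compared. With the values as deposited it was 1 of 8 (Lmod1), and 7 of 8 were below 0. The 8 genes vary together, as described below, so their shared direction is not 8 separate observations.

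Markers of other cell types were set beside this difference, and none of their lists had a median as far below 0 as the 8 genes. Between bond-disrupted and bonded animals, 48.3% of all genes had a log2 fold change below 0. The same held for 5 of 5 airway epithelium genes (median −0.20), 9 of 10 cardiac muscle genes (median −0.17), 7 of 9 pericyte genes (median −0.21) and 7 of 10 fibroblast genes (median −0.11). The log2 fold change was below 0 in 4 of 5 airway cartilage genes (median −0.06) and 2 of 3 skeletal muscle genes (median −0.12). In alveolar epithelium 2 of 9 were below 0 with a median of 0.23, in endothelium 3 of 9 (median 0.08) and in mesothelium 1 of 4 (median 0.08). At an unadjusted p under 0.05, which 5.83% of all genes passed, there was 1 gene in all these lists, Sftpb of alveolar epithelium, which was higher. The part of these cell types in the differences of the contractile genes between groups and between animals was not tested.

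The comparison of bond-disrupted with bonded animals rested on few animals. Without B6 the median log2 fold change of the 8 genes was −0.33, and without BD6 it was −0.29, in both cases with 0 of 8 at an unadjusted p under 0.05. Without both, it was −0.17 with 7 of 8 below 0, and Des stood at 0.09. Leaving out B4 or BD1 also left 0 of 8 at that level, and leaving out B2, B5 or BD3 left 1. Leaving out B3 or BD2 raised the number to 6 and 7. The share of all genes at that level in these fits is not given here. Whether the number among the 8 moved apart from that share was not tested.

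On the median over the 8 genes, virgin animals lay between the other groups. Against bonded animals the median log2 fold change of the 8 genes was −0.19, with 8 of 8 below 0 (48% of all genes) and 0 of 8 at an unadjusted p under 0.05, which 543 genes passed (3.49%). Against bond-disrupted animals the median was 0.23, with 0 of 8 below 0 and 0 of 8 at that level, which 650 genes passed (4.18%). In each comparison 0 of the 15556 genes were called by limma (0%), and voom called 0 as well. The 3 comparisons share their animals, so these values are not independent of each other. For Acta2 the 95% interval of the difference between virgin and bonded animals ran from −0.78 to 0.28 on the log2 scale, which leaves room for changes of both signs. The virgins overlapped with both other groups in all 8 genes, while 0.476% of all genes parted virgin from bonded and 0.264% virgin from bond-disrupted animals.

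**Figure D3:**
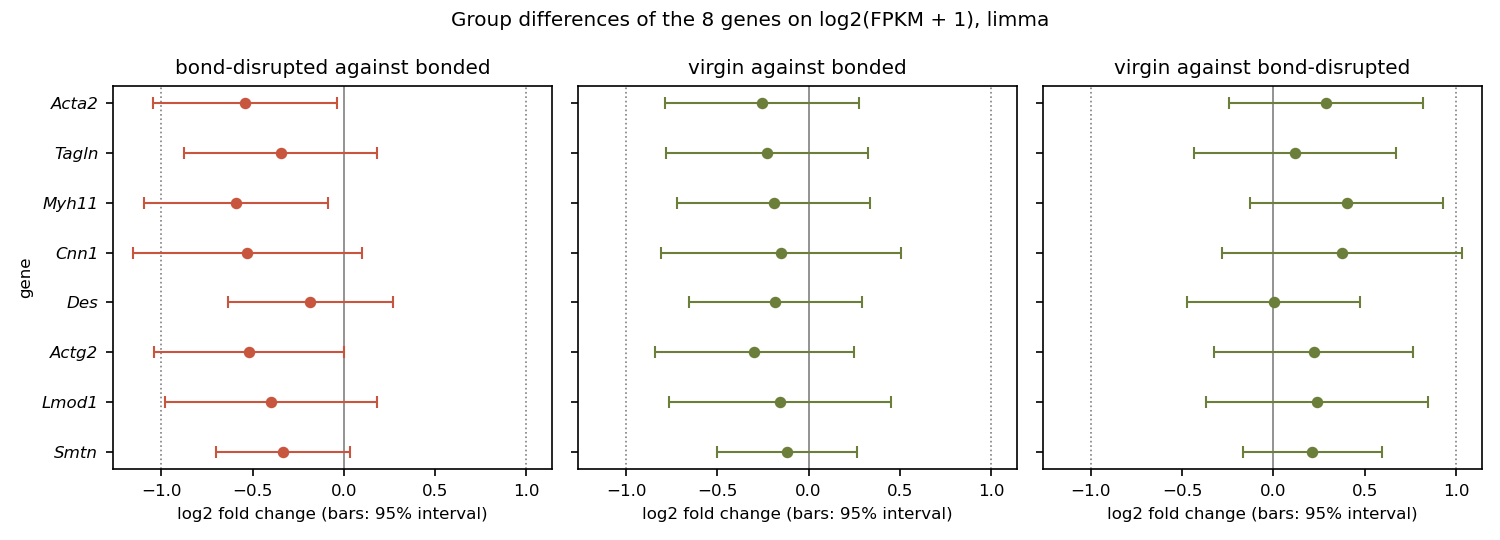
Log2 fold changes of the 8 genes in the 3 comparisons with 95% intervals from limma, on log2(FPKM + 1), with dotted lines at a 2-fold change. In bond-disrupted against bonded animals all points lie below 0, from −0.18 (Des) to −0.59 (Myh11), and the intervals of Acta2, Myh11 and Actg2 lie below 0.

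The 8 genes rose and fell together from animal to animal. With group means subtracted, the median Pearson r over the 28 pairs of genes was 0.886 across 17 animals (median Spearman rho 0.804). Over all pairs among 9606 genes that averaged 5 FPKM or more, the median was 0.0159, and 0.0716% of those pairs reached the median of the contractile genes. The closest pair was Acta2 with Tagln (r = 0.979), and the loosest was Myh11 with Des (r = 0.771), a value that 0.802% of all pairs reached. Without B6 and BD6, the 2 animals farthest out, the median was 0.828 and the lowest pair, Actg2 with Smtn, had 0.568. These correlations describe libraries that share animal, dissection and depth, and the points are animals, not genes.

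The spread between animals was wide for genes this abundant. The SD of log2(FPKM + 1) within groups ran from 0.31 in Smtn to 0.55 in Cnn1, which placed the 8 genes between the 72.8 and the 91.9 percentile of all genes tested. Among genes that averaged 5 FPKM or more, they lay between the 81.5 and the 94.0 percentile. From the lowest to the highest animal, Smtn differed 2.90-fold and Cnn1 5.00-fold, while the median gene with at least 5 FPKM differed 1.64-fold.

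A few animals made up most of this spread. B6 stood 0.80 above the mean of all animals on the log2 scale, averaged over the 8 genes, and was among the 3 highest animals in 8 of 8. BD2 came next at 0.56 and was also among the 3 highest in 8 of 8, although it belongs to the group with the lowest mean. BD6 stood at −1.04 and was among the 3 lowest in 8 of 8. The next lowest were B3 at −0.45 and BD1 at −0.40. The groups had means of 0.21 ± 0.41 (SD, n = 6) in bonded, −0.22 ± 0.53 (n = 6) in bond-disrupted and 0.01 ± 0.25 (n = 5) in virgin animals, so the distance between any 2 groups was about the size of the spread within them or smaller.

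**Figure D4:**
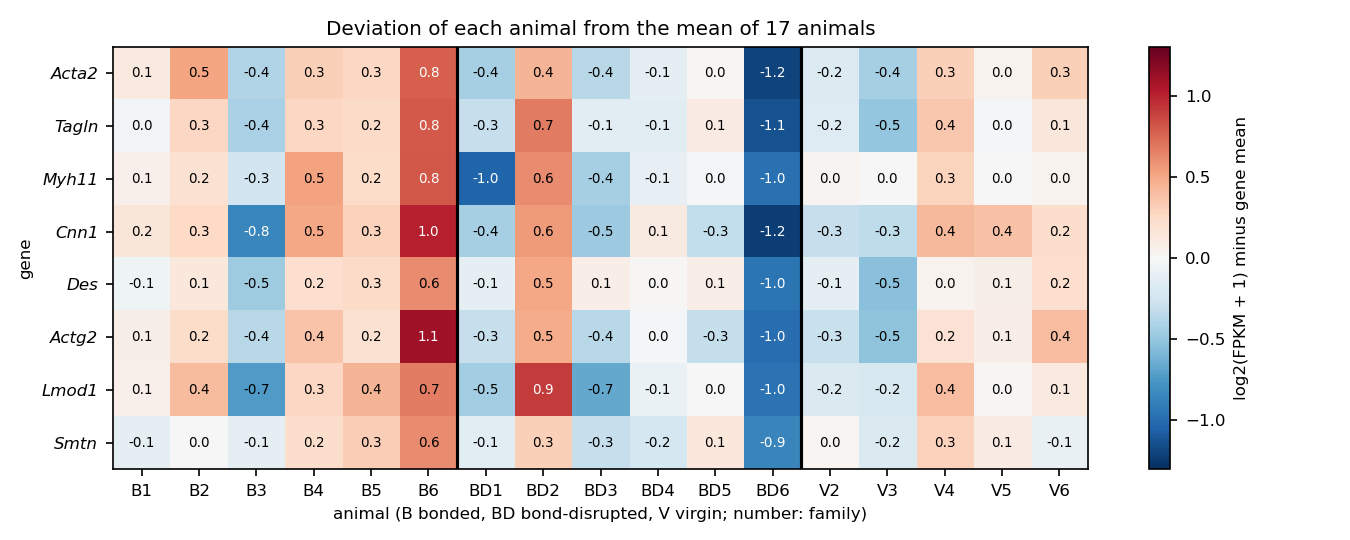
Deviation of each animal from the gene's mean over 17 animals on log2(FPKM + 1), for the 8 genes (rows) and the animals of the 3 groups (columns, parted by black lines). Columns are nearly of 1 colour, with B6 and BD2 high and BD6 low across all 8 genes, and Myh11 in BD1 is low beyond the rest of its column.

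B6 and BD6 are brothers, so the families could be set side by side. The bond-disrupted animal was lower than its bonded brother in all 8 genes in families 1, 4, 5 and 6, with mean log2 differences of −0.44, −0.41, −0.32 and −1.84. In family 2 it was higher by 0.31 on average, with 1 of 8 genes lower, and in family 3 by 0.12, with 2 of 8 lower. Acta2, Myh11 and Smtn were lower in 5 of the 6 families and the other 5 genes in 4 of 6. The size of the difference in family 6 was more than that of any other family in every gene.

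The proportions of the genes within an animal were compared as ratios to Acta2. For each FPKM of Acta2 there was 0.890 to 1.24 FPKM of Tagln across the 17 animals, a 1.39-fold range where Acta2 itself ranged 3.99-fold. Actg2 kept between 0.118 and 0.189 and Cnn1 between 0.0823 and 0.146. Smtn kept between 0.0642 and 0.114 and Lmod1 between 0.0339 and 0.0649. The widest was Myh11, from 0.146 to 0.308, a 2.11-fold range. Of the 7 ratios, those of Tagln and Actg2 thus varied less than the level of the median gene, and the others more. By group, the Tagln ratio was 0.890 to 1.07 in bonded animals, 1.04 to 1.24 in bond-disrupted animals and 0.935 to 1.09 in virgins, with BD4 reaching into the bonded range. The Des ratio was 0.269 to 0.345 in bonded animals (median 0.319) and 0.364 to 0.474 in bond-disrupted animals (median 0.396). In virgins it was 0.290 to 0.361 (median 0.326), so that every bond-disrupted animal lay above every animal of the other groups. The means were 0.315 ± 0.0267 (SD, n = 6), 0.404 ± 0.0432 (n = 6) and 0.3302 ± 0.0287 (n = 5). The lowest Des ratio, in B2, and the highest, in BD3, rest on Des values whose dividing length had been rescaled. Among the 9605 genes with at least 5 FPKM, 0.552% had a ratio to Acta2 that did not overlap between bond-disrupted and bonded animals (53 genes, of which 53 were higher in the bond-disrupted ones, where the denominator Acta2 itself had a log2 fold change of −0.54), and 0.0521% did between virgin and bond-disrupted animals. Of the 28 pairs among the 8 genes, this was the only one whose ratio parted bond-disrupted from bonded animals without overlap, and the only one that parted them from virgins. It was singled out after all 28 had been seen and is therefore given without a test. For each FPKM of Tagln, Des overlapped between these groups, at 0.291 to 0.331 in bonded and 0.294 to 0.387 in bond-disrupted animals. With group means subtracted, the Des ratio to Acta2 had an r of 0.63 with the summed alveolar markers across the 17 animals, of −0.54 with airway epithelium, −0.20 with cardiac muscle and 0.04 with pericyte markers. It was −0.40 with the sum of the 8 contractile genes, −0.36 with airway cartilage, 0.33 with fibroblast and 0.31 with smooth muscle transcription genes. Acta2 is the denominator of this ratio and one of the 8 genes, against which the alveolar sum ran (r = −0.749), so these values are not separate.

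**Figure D5:**
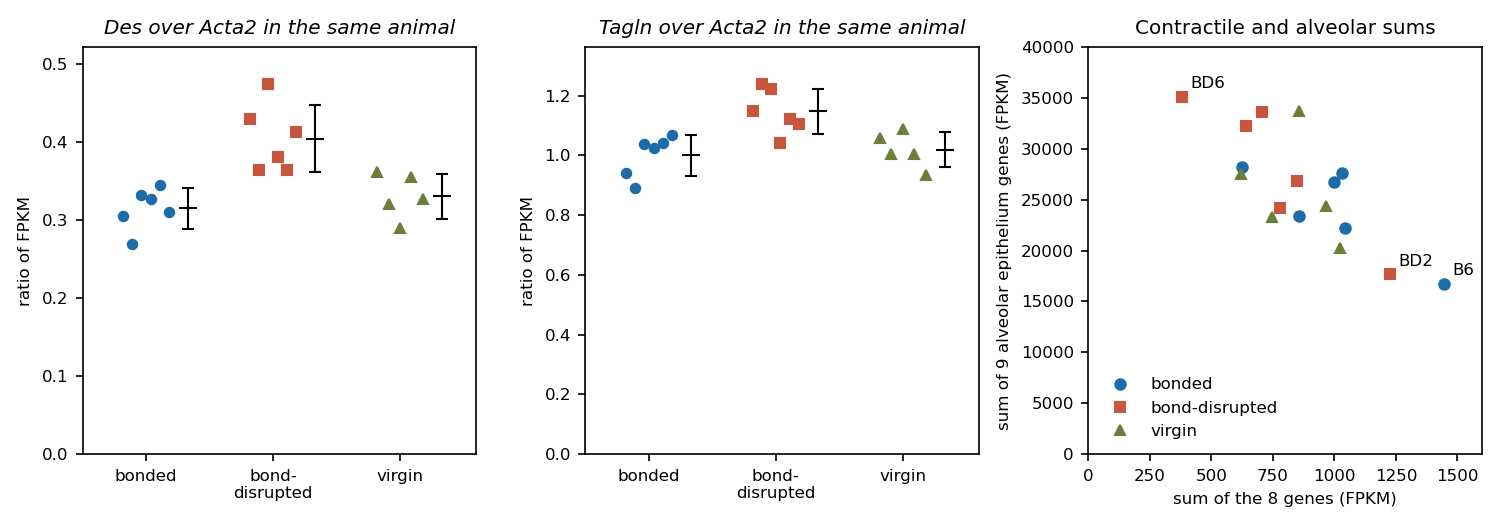
Left and middle: ratio of Des and of Tagln to Acta2 (FPKM over FPKM) in each animal, with group mean and SD. Right: summed FPKM of 9 alveolar epithelium genes against summed FPKM of the 8 contractile genes. The Des ratio is 0.364 or more in every bond-disrupted animal and at most 0.361 in all others, and the alveolar sum falls from BD6 to B6.

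The partners of actin and myosin were taken as a list of their own. All 17 genes of it were tested, 14 had a log2 fold change below 0 in bond-disrupted against bonded animals (48.3% of all genes), with a median of −0.12, and 0 were called by limma. At an unadjusted p under 0.05, 2 were lower and 0 higher, where 3.05% of all genes were lower and 5.83% passed in all. The 4 most abundant were Csrp1, a LIM protein of the smooth muscle cytoskeleton, at 645 FPKM on average, the light chain Myl6 at 571, the regulatory light chain Myl9 at 225 and the tropomyosin Tpm1 at 120. Myl9, the light chain whose phosphorylation starts contraction, was 270 ± 64.5 FPKM in bonded, 183 ± 36.1 in bond-disrupted and 220 ± 42.3 in virgin animals. Its log2 fold change between bond-disrupted and bonded animals was −0.54 (SE 0.18, unadjusted p = 0.00714, adjusted p = 0.817 by limma). Bonded animals ran from 165 to 360 FPKM and bond-disrupted ones from 132 to 224, with the highest in B4 and BD3 and not in B6 and BD2. Synpo2, an actin-bundling protein of the Z-disc and of smooth muscle, was the other at this level (−0.52, SE 0.23, unadjusted p = 0.0405, adjusted p = 0.856 by limma), and its B6 value of 17.1 FPKM stood against a bonded median of 6.70. Csrp1 and Myl6 had log2 fold changes of −0.03 and 0.03.

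The signalling genes that set contraction included RhoA and its kinases, myosin phosphatase, the nitric oxide and cyclic GMP pathway, calcium and potassium channels and receptors. With 19 of 21 genes tested, 13 had a log2 fold change below 0 (median −0.09, against 48.3% and 0.01 for all genes) and 0 were called by limma. The number at an unadjusted p under 0.05 was 1 of 19, close to the 5.83% of all genes. It was Chrm2, a muscarinic receptor, at 2.07 ± 1.02 FPKM in bonded, 1.03 ± 0.39 in bond-disrupted and 1.57 ± 0.33 in virgin animals (log2 fold change −0.53, SE 0.21, unadjusted p = 0.0246, adjusted p = 0.817 by limma). The most abundant were Rhoa at 133 FPKM, the phosphatase subunit Ppp1cb at 127, the cyclic GMP phosphodiesterase Pde5a at 49.4 and the kinase Rock1 at 41.8. Their log2 fold changes between bond-disrupted and bonded animals were −0.0049, 0.07, −0.22 and 0.02.

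Transcription factors of the smooth muscle programme were also listed. Of 9 tested, 4 had a log2 fold change below 0 (median 0.04, against 48.3% and 0.01 for all genes), 0 were called by limma and 0 had an unadjusted p under 0.05 in any comparison. The most abundant were Foxf1 at 72.4 FPKM, Klf4 at 49.5, Gata6 at 26.7 and Tead1 at 23.6. Myocardin, Myocd, named here after its values were seen, was a low transcript at a mean of 1.30 FPKM, with its highest levels in B6 (3.601) and BD2 (2.03). Its r with the mean of the contractile genes was 0.70, and its log2 fold change between bond-disrupted and bonded animals was −0.27 (SE 0.21, adjusted p = 0.882 by limma). Its relative Mrtfb had an r of 0.51 and a log2 fold change of 0.04. Another relative, Mrtfa, ran the other way, with an r of −0.58, the lowest of this list, and a log2 fold change of 0.09. Serum response factor, Srf, had an r of −0.15 and a fold change of −0.0043 on the log2 scale. The median r with the mean of the contractile genes over 17 animals was 0.05 for this list, 0.34 for the signalling genes and 0.45 for the actomyosin partners, 0.39 for pericyte and 0.53 for cardiac muscle markers, against 0.01 for all genes with at least 5 FPKM.

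Outside the 8, the gene whose level was most like theirs was Tpm2, the tropomyosin of smooth muscle (r = 0.912 with the mean of the 8 standardised genes over 17 animals with group means subtracted, 0.937 without B6 and BD6). It ran from 59.7 FPKM in BD6 to 155 in B6. Also high were Iqcc (0.893), Gorasp1 (0.853), Stk25 (0.851) and Hspb1 (0.845), a small heat shock protein of muscle. The farthest in the other direction were Mboat7 (−0.895), Axl (−0.879), a receptor tyrosine kinase, and Sema4g (−0.877). Among 9598 genes compared, 136 had an r above 0.7 and 254 under −0.7.

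Markers of other tissues were summed in the same libraries. Markers of lung epithelium were abundant, with surfactant protein C, Sftpc, at a mean of 19872 FPKM and Scgb1a1 of club cells at 92786, as the lung label has it. No gene of the marker lists was called in any comparison by limma. The sum of 9 alveolar epithelium genes ran against the contractile genes, from 16746 FPKM in B6 and 17665 in BD2 to 35129 in BD6 (r = −0.749 with the mean of the 8 genes, group means subtracted, and −0.637 without B6 and BD6). By group this sum was 16746 to 28195 FPKM in bonded, 17665 to 35129 in bond-disrupted and 20255 to 33725 in virgin animals. Sftpb was the one gene of this list at an unadjusted p under 0.05 between bond-disrupted and bonded animals (log2 fold change 0.43, SE 0.14, unadjusted p = 0.00630, adjusted p = 0.817 by limma). Between virgin and bonded animals its log2 fold change was 0.39 (SE 0.14, unadjusted p = 0.0146, adjusted p = 1 by limma).

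Cardiac muscle, which sheathes the pulmonary veins of rodents, gave 10 tested genes of the 12 in the table. Its sum was highest in B6 at 632 FPKM, with 476 in V5 next, and lowest in B3 at 59.1, and its r with the contractile genes was 0.596 (0.547 without B6 and BD6). Myl7 and Tnni3, at means of 88.1 and 47.7 FPKM, led it, while Myl2 of the ventricle stayed at or under 0.385 FPKM in every animal. In BD6, the animal with the least contractile RNA, the skeletal muscle sum was 23.9 FPKM against at most 7.64 elsewhere, led by Acta1 at 21.4. The airway cartilage sum in BD6 was 28.3 against at most 18.0, led by Col2a1 at 14.2. For pericyte markers the sum had an r of 0.151 with the contractile genes, which was −0.0926 without B6 and BD6. This sum was 52.7% Postn, whose own r was −0.10, while 7 of the 9 pericyte genes had an r above 0, up to 0.68 in Kcnj8 (median 0.39 over the list). For fibroblast markers it was −0.0909 (−0.304 without these animals), for endothelium 0.367 (0.152), for airway epithelium 0.470 (0.425) and for mesothelium −0.0108 (−0.0734). Some of these sums also rest on 1 gene. Scgb1a1 made up 99.0% of the airway epithelium sum (its own r 0.47), and 5 of 5 genes of that list had an r above 0. Mfap4 made up 66.1% of the fibroblast sum with an r of −0.30, where the list ran from −0.51 in Lum to 0.71 in Pdgfra. Upk3b made up 72.8% of the mesothelium sum. Sftpc made up 76.2% of the alveolar sum (r = −0.74), and 1 of 9 genes of that list had an r above 0. The skeletal muscle and airway cartilage sums had −0.277 and −0.139 with all animals and 0.333 and 0.559 without B6 and BD6.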

How the data were processed

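The authors deposited FPKM for 27786 genes, 1 column for each of 17 animals, all of them used (0 columns left over). Libraries were directional, made from total RNA. The submitters' processing notes name FastQC, Trim Galore 0.4.5, STAR 2.7.2, SAMtools 1.5 and featureCounts of Subread 1.5.3, and the paper names limma within iDEP. Genome build and annotation are not given in the sources used here. Gene names match RefSeq for assembly ASM782708v3.

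The deposited FPKM of the first column are divided by the length of the gene 1 row above, and each later column by that of the gene 1 row further up. Library depths were solved from small RNA genes with their RefSeq lengths, and all lengths then as those that give whole reads. Of 27787 lengths 26423 were solved, 1343 of them after rescaling by a simple ratio. Of 1485 small RNA lengths, 1483 equal those of RefSeq, and 98.5% of recovered values were whole within 0.005 reads. Both figures partly follow from the way depths and lengths were solved, so they are not independent checks. Multiplying by those lengths and dividing by each gene's own length lowered the median SD of log2 values between animals from 1.36 to 0.189.

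Groups come from the sample labels. The fit was limma 3.58.1 in R 4.3.3 on log2(FPKM + 1), a scale that understates changes of low genes, with 3 groups in one fit, two-sided, for the 15556 genes that reached 1 FPKM in 1 animal or more. Genes were called at a 2-fold change or more with an adjusted p under 0.1. Other steps ran in Python 3.11.15. The recovery of lengths and reads, and the limma fit for bond-disrupted against bonded animals, were tested on simulated data. All 8 genes passed the filter. The 8 genes and all lists were chosen with earlier results of these data known. Named besides the 8 are genes among the 4 most abundant of their list, genes on contraction, its signalling or transcription with an unadjusted p under 0.05, and the 6 genes most like and 3 least like the 8, of which 1 is not reported here. Myl2, Col2a1, Myocd, Mrtfa, Mrtfb, Srf and the ratio of Des to Acta2 were singled out after their values were seen. Kcnj8, Lum and Pdgfra were named after the fact too, for the highest or lowest r of their lists. Alternatives are given at the end.

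Same-numbered animals belong to 1 family in the study's account. Over all genes, deviations from group means correlated above 0.1 in 7 of 16 such pairs (mean r 0.0517, from −0.328 to 0.414), among them 6 of the 6 that join the bonded and bond-disrupted groups (0.106 to 0.414).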

Additional observations from a re-analysis of the deposited data

Results flagged for a closer look

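A check for single animals far from their group was run on 27 sets of values, those of the 8 genes and of their mean in each of the 3 groups, and picked out 3. Chance alone picks out about 1 in 20 of separate sets. These sets are not separate, because the 8 genes vary together, so the 3 cannot be set against that share. Myh11 in V4, at 76.5 FPKM, stood above the other virgins, which lay within 62.4 to 64.3 FPKM. Actg2 in B6, at 89.4 FPKM, stood above the other bonded animals. Lmod1 in BD2, at 24.2 FPKM, stood above the other bond-disrupted animals.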

How the results depend on the processing

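None of the 8 genes was called in any comparison under any alternative, and their adjusted p ran from 0.433 (Lmod1 between virgin and bond-disrupted animals, as deposited) to 1.00 (limma). With values as deposited, 40 genes were called between bond-disrupted and bonded animals, 113 between virgin and bonded and 35 between virgin and bond-disrupted, in place of 0, and the median correlation between pairs of the 8 genes was 0.116 in place of 0.886. As deposited, these log2 fold changes turned: Tagln 1.05 between bond-disrupted and bonded, Acta2 1.57, Myh11 0.39, Cnn1 0.086, Actg2 0.26 and Lmod1 0.60 between virgin and bonded, and Tagln −1.43, Des −0.18 and Smtn −0.48 between virgin and bond-disrupted animals. Removing the row-minus-column effect by an additive model turned none of the 24, called 6 genes between virgin and bonded animals and gave a median correlation of 0.795, and Spearman in place of Pearson gave 0.804.

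Leaving out each animal in turn, 0 to 1 genes were called between bond-disrupted and bonded and between virgin and bonded animals, the 1 in each case without B4. The range of log2 fold changes crossed 0 for Cnn1 between virgin and bonded (−0.37 to 0.0031) and, between virgin and bond-disrupted animals, for Tagln (−0.078 to 0.28) and Des (−0.18 to 0.12). The median correlation ran from 0.846 to 0.910. Leaving out B6 and BD6 together, chosen after seeing the data, called 1 gene between virgin and bond-disrupted animals and turned Des (0.093 between bond-disrupted and bonded), Cnn1 (0.0031, virgin and bonded), Tagln (−0.078) and Des (−0.18, virgin and bond-disrupted). The median-ratio factor turned Des between virgin and bond-disrupted animals (−0.018). With the family number as a replicate block, the same value was −0.022, Acta2 between bond-disrupted and bonded animals stayed at −0.54 (adjusted p = 0.862, limma), and the block changed no other call. The cause of these turns was not tested. A pseudocount of 0.1, quantile normalization and voom turned none of the 24. Other filters, a trend, a fit to 2 groups only and no fold limit leave these fold changes as they are by construction, and with them 0 of the 8 genes were called.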
